A study of Mus musculus with 24 samples.

Results

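The 8 cholesterol synthesis genes Hmgcs1, Mvd, Idi1, Fdps, Fdft1, Sqle, Lss and Cyp51 were examined in whole cerebella of mice carrying the S776A mutation of Ataxin-1 (ATXN1) on an unexpanded or a polyglutamine-expanded allele. The genes were chosen by name, as enzymes of 1 pathway, out of 54232 genes counted. All 8 passed the filter on low counts, which kept 22502 genes. Bulk RNA was sequenced from 24 mice at 6 weeks of age on a C57BL/6J background. WT mice (n = 8) carried 2 unexpanded Atxn1 alleles. SCA1 mice (n = 4) carried a knockin CAG expansion, named Atxn1[154Q], on 1 allele and an unexpanded allele on the other. SCA1 S776A mice (n = 4) carried S776A on the expanded allele only, and S776A double mice (n = 4) carried it on both the expanded and the unexpanded allele. WT S776A homozygous mice (n = 4) carried S776A on both unexpanded alleles and no expansion. The expansion and the mutation sit in the endogenous gene and so are present in every cell type. The founder line behind each library was not given in the sources used here.

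Cholesterol does not cross from blood into brain in appreciable amounts, so brain cells make their own, with oligodendrocytes needing it for myelin and astrocytes supplying it to neurons. Synthesis runs from acetyl-CoA through mevalonate and the isoprenoid farnesyl diphosphate to squalene, and then through lanosterol to cholesterol. The transcription factor SREBP2, encoded by Srebf2, is held back by INSIG proteins when sterol is plentiful and raises most genes of the pathway together when sterol is short. It works at promoters with sterol regulatory elements, commonly beside the factor NF-Y, which binds the CCAAT box.

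The libraries held 62163600 to 88430180 fragments assigned to genes. They fell into 2 sequencing batches, inferred from technical shares because the labels do not name them. Batch 1 held 4 WT mice and all SCA1, SCA1 S776A and S776A double mice, and batch 2 held the other 4 WT and all WT S776A homozygous mice. Every genotype was therefore compared with the 4 WT mice sequenced alongside it. WT S776A homozygous mouse 4 stood apart by a mitochondrial share of 6.73% of fragments. Results of the members and the score that rest on it are given with and without it. Fold changes of genes outside the members in that group are given only with it.

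The members were not measured equally well. Fdps (chromosome 3, 89093588 to 89101959, minus strand, GRCm38), the farnesyl diphosphate synthase, had only 27 to 103 fragments per library. In the GENCODE M21 annotation, 85.9% of its coding bases also lie in exons of the read-through gene Gm43738 on the same strand, and the counter used assigns no fragment that falls in exons of more than 1 gene. The Fdps values may therefore stand for a small remainder of its fragments, which was not tested, and carry a counting error of 19.2% at 27 fragments. Hmgcs1 (chromosome 13, 119690379 to 119708260) shares exon bases with Gm48342 on the opposite strand, Fdft1 (chromosome 14, 63145150 to 63179578) with the end of Ctsb, and Lss (chromosome 10, 76531588 to 76557138) with 4930483K19Rik. When fragments were counted per strand and summed, Hmgcs1 gained 1.32 to 1.52 times, Fdft1 1.29 to 1.39 times and Lss 1.13 to 1.17 times. The gain was 1.01 to 1.03 times for Idi1 (chromosome 13, 8885501 to 8892451) and 1.02 to 1.03 times for Cyp51 (chromosome 5, 4081145 to 4104746). Because the strands were equally covered, per-strand counts can also give a member fragments of its neighbour, and their share was not tested. Ctsb had 35834 to 60710 fragments per library, against 2860 to 5694 for Fdft1. Mvd (chromosome 8, 122433601 to 122443422) and Sqle (chromosome 15, 59315077 to 59331192) share no exon base with another gene. Apart from Fdps, each member had at least 1169 fragments in every library.

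The promoters of Hmgcs1, Idi1 and Cyp51 are shown because these 3 genes varied together from mouse to mouse, as described further on, and were picked for that after the values were seen. Each sequence covers the 250 bases before the RefSeq start of the gene (GRCm38.p6), read 5′ to 3′ on the strand of the gene, with CCAAT boxes on either strand and the sterol regulatory element TCACNCCAC in capitals.
Hmgcs1, chr13:119690101-119690350, plus strand: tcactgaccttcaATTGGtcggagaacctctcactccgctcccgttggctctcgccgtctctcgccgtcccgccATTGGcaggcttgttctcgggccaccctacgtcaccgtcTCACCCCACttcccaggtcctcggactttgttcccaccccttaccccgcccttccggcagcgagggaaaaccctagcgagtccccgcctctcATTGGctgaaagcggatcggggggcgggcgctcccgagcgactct
Idi1, chr13:8885356-8885605, plus strand: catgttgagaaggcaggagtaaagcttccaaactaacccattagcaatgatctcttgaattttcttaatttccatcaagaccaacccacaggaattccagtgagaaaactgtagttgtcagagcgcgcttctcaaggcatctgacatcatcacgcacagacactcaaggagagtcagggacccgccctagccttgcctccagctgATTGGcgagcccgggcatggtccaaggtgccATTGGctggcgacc
Cyp51, chr5:4104698-4104947, minus strand: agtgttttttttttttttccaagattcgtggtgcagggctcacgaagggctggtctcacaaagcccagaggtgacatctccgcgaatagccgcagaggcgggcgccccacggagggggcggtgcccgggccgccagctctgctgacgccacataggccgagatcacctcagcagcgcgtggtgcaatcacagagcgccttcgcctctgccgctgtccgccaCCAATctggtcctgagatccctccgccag

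RefSeq windows were available for 5 of the 8 members, namely Hmgcs1, Mvd, Idi1, Lss and Cyp51. All 5 windows held a CCAAT box, against 33.8% of 32851 windows of the same length. The box began 237, 176 and 45 bases before the start in Hmgcs1, 45 and 14 bases before it in Idi1, and 29 bases before it in Cyp51. Mvd had 2 boxes and Lss had 1. All 5 windows also held the GC box GGGCGG on either strand, which 32.7% of all windows held. TCACNCCAC was found in 1 of the 5, that of Hmgcs1, 137 bases before the start, and in 1.05% of all windows. Of 11 further sterol pathway genes with a window, 10 held a CCAAT box and none held TCACNCCAC. Only this 1 form of the sterol regulatory element was searched, so a window without it may still hold another form. These are matches of letters and not measured binding sites.

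Per kilobase of annotated exon, the members spanned a wide range in the 4 WT mice of batch 1. Hmgcs1, which makes the mevalonate precursor HMG-CoA, stood highest at 31.0 ± 3.16 CPM per kb (SD, n = 4), where CPM is the count of a gene scaled to the size of its library. Cyp51, the lanosterol demethylase, followed at 15.6 ± 2.17 and Mvd, which closes the mevalonate section of the pathway, at 13.8 ± 0.395, a pair that did not differ beyond their spread. Fdft1, the squalene synthase, stood at 10.8 ± 0.489 and Sqle, the squalene epoxidase, at 9.20 ± 0.858. Idi1, the isopentenyl diphosphate isomerase, reached 5.77 ± 0.463 and Lss, the lanosterol synthase, 3.88 ± 0.280. The length joined the exons of all annotated transcripts, 10787 bases for Lss and 1859 for Mvd, so the order depends on it. In plain CPM of the same mice, Lss (41.9) stood above Mvd (25.6). Fdps, at 0.244 ± 0.0390, stood last, with the shared exons described above. With fragments counted per strand and summed, Fdft1 reached 13.4 ± 0.497 CPM per kb and Mvd 12.6 ± 0.384. This alternative was added after the values were seen. The order of this pair therefore depends on the counting, and the Fdft1 value may include fragments of Ctsb, which was not tested. Hmgcs1 stayed highest at 41.4 ± 4.07 with this counting.

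SCA1 mice had cholesterol synthesis genes close to WT levels. No member passed the threshold of an adjusted p under 0.01 with a log2 fold change over 0.5 either way, which 0.173% of all genes tested passed, and none reached an unadjusted p under 0.05, which 8.25% of genes reached. With only the groups compared in the fit, 3 members reached that unadjusted p, and no share of all genes was computed for that fit. Fdft1 measured 46.9, 43.8, 44.2 and 48.1 CPM in the 4 WT mice and 50.2, 50.4, 54.1 and 47.8 CPM in the 4 SCA1 mice. All SCA1 mice but 1 lay above every WT mouse and that 1 fell inside the WT range, and the log2 fold change was 0.15 (95% interval -0.03 to 0.32, edgeR adjusted p = 0.692). Sqle measured 52.5, 45.6, 49.2 and 56.8 CPM in WT and 54.3, 57.3, 58.0 and 55.2 CPM in SCA1, with overlapping groups and a log2 fold change of 0.14 (-0.05 to 0.32). Hmgcs1 in WT was at 138, 131, 137 and 164 CPM and in SCA1 at 144, 159, 172 and 149.6 CPM. Its groups overlapped too, at a log2 fold change of 0.13 (-0.11 to 0.38). Mvd measured 26.3, 26.1, 25.3 and 24.7 CPM in WT and 28.2, 25.7, 27.2 and 30.6 CPM in SCA1. All SCA1 mice but 1 were again above the WT mice, at a log2 fold change of 0.12 (-0.08 to 0.32). Cyp51 spread widely in both groups, from 58.7 to 81.5 CPM in WT and from 63.4 to 83.5 CPM in SCA1. Its log2 fold change was 0.09, as was that of Idi1, with Lss at -0.03 and Fdps at -0.11 on the same log2 fold change scale. The median over the 8 was 0.11, beside 0.00 over all genes tested, and 6 of 8 members lay above 0. No member had all SCA1 mice on 1 side of all WT mice, as 8.76% of genes did.

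**Figure D1:**
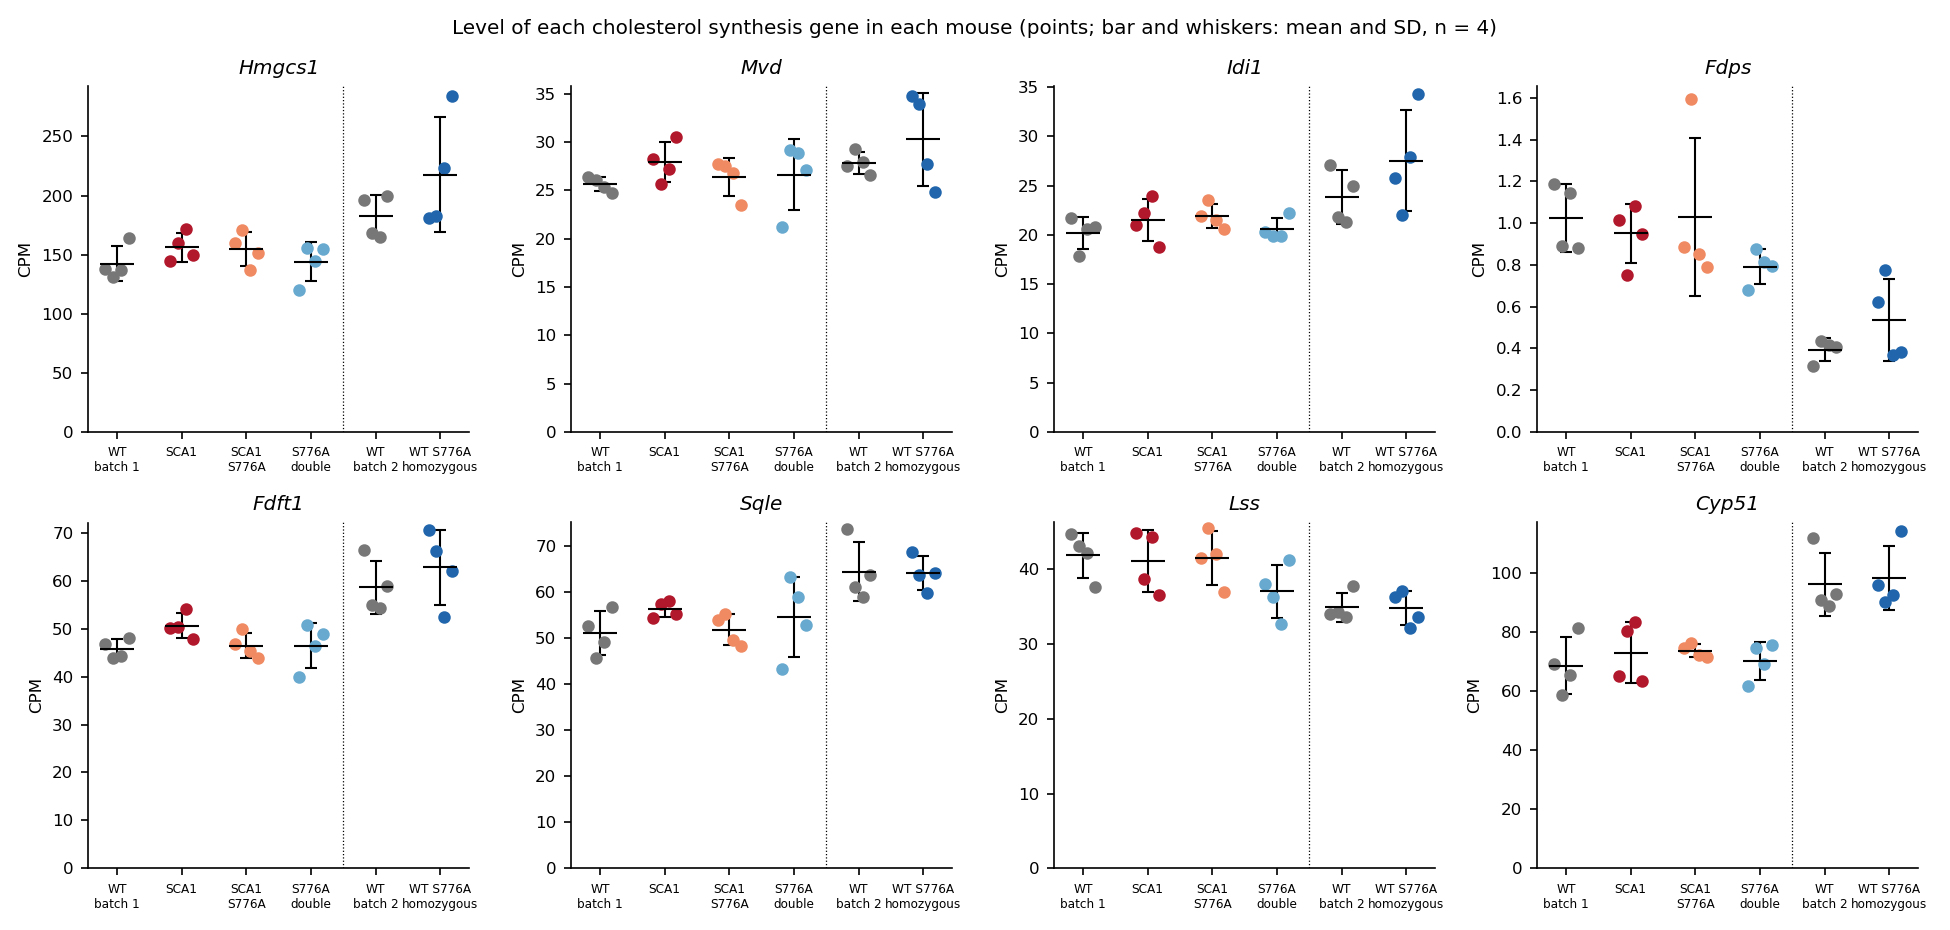
Level in CPM (y axis, from 0) of each of the 8 genes in each of 24 mice (points), by genotype and batch, with the mean and SD of the 4 mice of each group. Batch 2, right of the dotted line, is higher than batch 1 for Hmgcs1, Cyp51, Fdft1 and Sqle and lower for Fdps, and the genotypes overlap their own WT mice except Fdps in S776A double.

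SCA1 S776A mice also had members close to WT levels. Again 0 members were called, with 0.0133% of genes called in that comparison, and 0 members reached an unadjusted p under 0.05, which 3.93% of genes reached. Hmgcs1 measured 160.0, 171, 137 and 151 CPM, against the 131 to 164 CPM of WT, for a log2 fold change of 0.12 (95% interval -0.12 to 0.36). The log2 fold change was 0.11 for Idi1 and 0.10 for Cyp51, and between -0.01 and 0.04 for Mvd, Fdft1, Sqle, Lss and Fdps. The Fdps value of 0.00 rests on mouse 2, at 1.59 CPM beside 0.888, 0.852 and 0.788 CPM in the other mice of the group, and was -0.28 without that mouse. All 8 members overlapped WT, where 4.39% of genes did not overlap.

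S776A double mice had the lowest mean Lss level of batch 1. Lss measured 38.0, 36.3, 32.6 and 41.2 CPM, against 44.7, 43.1, 42.1 and 37.7 CPM in WT, so that the groups overlapped through WT mouse 4 and S776A double mice 1 and 4. The log2 fold change was -0.18 (95% interval -0.34 to -0.01), with an unadjusted p of 0.0368 and an edgeR adjusted p of 0.702. It ranged from -0.24 to -0.12 when 1 mouse at a time was left out. Lss was the 1 member of 8 at an unadjusted p under 0.05, beside 6.93% of all genes, and none was called, beside 0.0267%. For Fdps, all S776A double mice (0.681, 0.878, 0.815 and 0.794 CPM) lay below all WT mice (1.19, 0.888, 1.14 and 0.880 CPM), with the highest of the former next to the lowest of the latter, and the log2 fold change of -0.37 had an interval of -0.83 to 0.09. Groups did not overlap in 7.11% of all genes. The other 6 members had log2 fold changes of 0.02 to 0.10. S776A double mouse 1 was the lowest of the 16 mice of batch 1 in Hmgcs1 (120.3 CPM), Mvd (21.2 CPM), Fdps (0.681 CPM), Fdft1 (39.8 CPM) and Sqle (43.2 CPM). Its Idi1 (20.3 CPM) and Lss (38.0 CPM) lay inside the range of its group.

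WT S776A homozygous mice, which carry no expansion, gave the highest value of Hmgcs1. It measured 181, 182, 223.5 and 284.5 CPM in these mice and 196, 168, 165 and 199.8 CPM in the WT mice of batch 2. Mice 3 and 4 lay above every WT mouse, mice 1 and 2 within the WT range. The log2 fold change was 0.26 (95% interval 0.01 to 0.50), with an unadjusted p of 0.0393 and an edgeR adjusted p of 0.485. Without mouse 4, the library with the high mitochondrial share, it was 0.10 (unadjusted p = 0.342), and the unadjusted p was also above 0.05 without mouse 3 (0.0835), WT mouse 6 (0.101) or WT mouse 7 (0.11). With the per-strand counts it was 0.19 (unadjusted p = 0.0832). Idi1 measured 25.8, 22.1, 27.9 and 34.3 CPM against 27.1, 21.8, 21.3 and 25.0 CPM in WT. Its log2 fold change of 0.21 (-0.00 to 0.42) became 0.08 without the same mouse. Mvd had a log2 fold change of 0.12 (-0.08 to 0.32), with mice 1 and 2 highest at 34.7 and 33.9 CPM and mouse 4 lowest at 24.8 CPM, around a WT range of 26.6 to 29.3 CPM. Without mouse 4 it was 0.20 (unadjusted p = 0.0314), and without mouse 1 it was 0.04. Fdps had a log2 fold change of 0.45 (-0.05 to 0.96), which was 0.58 without mouse 4 (unadjusted p = 0.0291) or mouse 3 (unadjusted p = 0.0294) and 0.22 without mouse 2. The value of Fdft1, 0.10, was the same without mouse 4, but 0.02 without mouse 1 and 0.17 without mouse 3 (unadjusted p = 0.0494). Cyp51 was at 0.03, Lss at -0.00 and Sqle at -0.01 on the same scale. Hmgcs1 was the 1 member of 8 at an unadjusted p under 0.05, beside 9.98% of genes. Without mouse 4 the count was 2, for which no share of all genes was computed. No member was called, and neither was any other gene (0%), with 2246 genes at an unadjusted p under 0.05. No member separated the groups fully, as 2.65% of genes did.

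**Figure D2:**
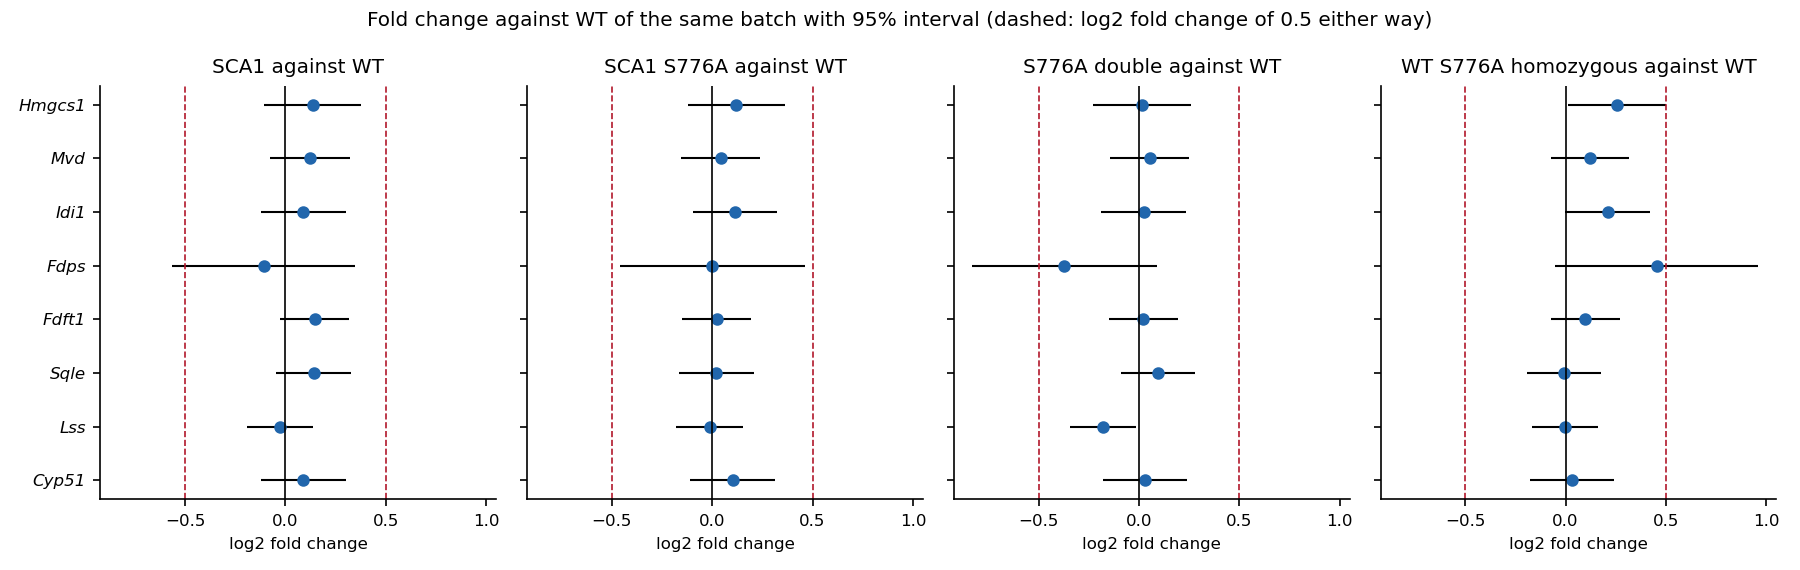
Log2 fold change (points) with its 95% interval (lines) of each gene, for each genotype against WT of the same batch. Apart from Fdps, every interval lies between -0.34 and 0.50, and only the intervals of Hmgcs1 in WT S776A homozygous and of Lss in S776A double leave out 0.

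SCA1, SCA1 S776A and S776A double mice differ only in which alleles carry S776A, which makes 3 further comparisons. SCA1 S776A against SCA1 gave log2 fold changes of -0.12 for Fdft1 and Sqle and -0.08 for Mvd, with Fdps at 0.11. S776A double against SCA1 gave values below 0 for all 8 members, from -0.26 for Fdps to -0.04 for Sqle, with Lss at -0.15 (95% interval -0.32 to 0.01). Of all 22502 genes tested, 11349 lay above 0 in that comparison. The values include S776A double mouse 1, the lowest of batch 1 in several members. S776A double against SCA1 S776A gave -0.37 for Fdps (-0.83 to 0.09), -0.16 for Lss (-0.33 to 0.00) and 0.08 for Sqle. These comparisons share mice with each other and with those against WT, so their values are not independent. No member was called in any of the 3, where 0.00444%, 0% and 0% of genes were called, and no member reached an unadjusted p under 0.05, where 4.35%, 3.64% and 2.96% of genes did. Excluding Fdps, the intervals of the 7 members ran from -0.36 to 0.26 in these comparisons. DESeq2 with the batch in its fit also called 0 members in each of the 7 comparisons.

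Averaged over the 8 members, the log2 CPM difference from WT of the same batch (the score) was 0.07 ± 0.08 in SCA1, 0.05 ± 0.13 in SCA1 S776A and -0.04 ± 0.13 in S776A double mice, and reached 0.13 ± 0.08 in WT S776A homozygous mice (SD, n = 4 each). WT mice spread around 0 with an SD of 0.08 in batch 1 and 0.07 in batch 2. The scores of SCA1 mice were 0.06, 0.04, 0.19 and 0.00, of which 1 lay above the highest WT mouse of the batch, at 0.07. The scores of SCA1 S776A mice were 0.06, 0.22, -0.01 and -0.07. S776A double mice scored -0.22, 0.06, -0.03 and 0.04, and their mean was 0.02 without mouse 1. WT S776A homozygous mice scored 0.19, 0.16, 0.00 and 0.16, and 3 of the 4 lay above the highest WT mouse of batch 2, at 0.07. Without the poorly measured Fdps, a choice made after the values were seen, the means were 0.10, 0.06, 0.01 and 0.09 in the same order of genotypes. On that score WT mice of batch 2 reached 0.122, and 2 of 4 WT S776A homozygous mice lay above it, mouse 1 (0.124) and mouse 4 (0.186). The score without Fdps was not computed without mouse 4. Without mouse 4, the score over 8 genes in WT S776A homozygous mice was 0.11.

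**Figure D3:**
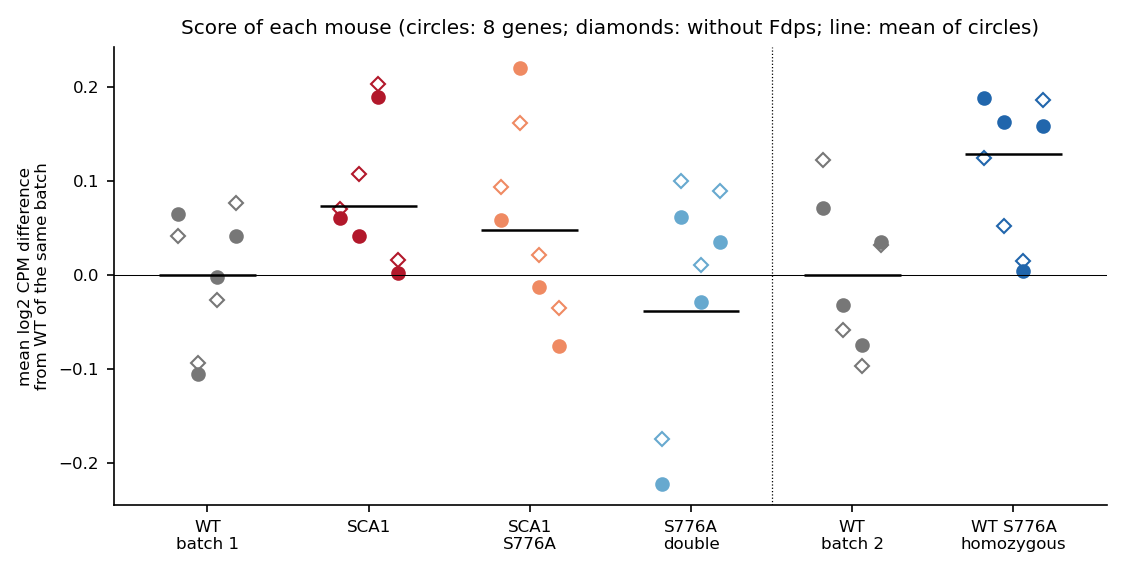
Score of each mouse, the mean log2 CPM difference from the WT mice of its batch over the 8 genes (circles) and over 7 genes without Fdps (diamonds), with the mean of the circles as a line. Every genotype overlaps the WT mice of its batch, and the lowest of 24 mice is S776A double mouse 1 at -0.22.

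For every member but Mvd, the difference between batches was larger than any log2 fold change between a genotype and WT. Between the WT mice of batch 2 and those of batch 1, the mean log2 CPM differed by 0.49 for Cyp51, 0.36 for Hmgcs1, 0.35 for Fdft1, 0.33 for Sqle, 0.23 for Idi1 and 0.12 for Mvd, all higher in batch 2. Lss was lower in batch 2 by a log2 difference of -0.26 and Fdps by -1.32. Hmgcs1 averaged 142 ± 14.5 CPM in WT of batch 1 and 182 ± 18.0 CPM in WT of batch 2, with no overlap. The WT mice of the 2 batches did not overlap in 6 of the 8 members. The share of all genes that did so was not computed, so whether this count is particular to the members is not known. These mice share genotype and age, and what else differs between the batches was not given in the sources used here. Without the batch in the fit, the log2 fold change of Hmgcs1 in WT S776A homozygous mice was 0.42 in place of 0.26 (edgeR adjusted p = 0.0323) and that of Idi1 0.32 in place of 0.21 (adjusted p = 0.0341).

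The other 13 enzymes of the sterol pathway also differed little from WT. In SCA1, 0 of 13 reached an unadjusted p under 0.05, and their median log2 fold change was 0.08, with the highest, 0.15, for Mvk. The median was 0.06 in SCA1 S776A and 0.03 in S776A double mice, again with 0 of 13 at that p. In WT S776A homozygous mice 2 of 13 reached it, Pmvk at a log2 fold change of 0.15 (adjusted p = 0.485) and Acat2 at 0.13 (adjusted p = 0.49), both early enzymes. No gene of the list passed an adjusted p of 0.05 in any comparison with WT.

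The regulators and transport genes differed from WT by similarly small amounts. Srebf2 had log2 fold changes of -0.05 in SCA1, -0.08 in SCA1 S776A, -0.16 in S776A double and -0.16 in WT S776A homozygous mice. Insig1, the sterol-regulated retention protein, lay at -0.01, -0.09, -0.09 and 0.14 in the same order of genotypes. Of the 7 sterol sensing genes, Insig2 alone reached an unadjusted p under 0.05, at 0.12 in WT S776A homozygous mice. Among uptake and traffic genes, the lipoprotein receptor Lrp8 was at -0.22 (unadjusted p = 0.0144) and the lysosomal sterol carrier Npc2 at 0.17 (unadjusted p = 0.0393) in SCA1. The lysosomal exporter Npc1 was at -0.23 (unadjusted p = 0.0305) and the sterol carrier Stard4 at 0.20 (unadjusted p = 0.0326) in WT S776A homozygous mice. Abca1, which exports cholesterol and is a target of liver X receptors, was at -0.23 in SCA1 (unadjusted p = 0.00579, edgeR adjusted p = 0.29), -0.17 in SCA1 S776A (unadjusted p = 0.0389), -0.10 in S776A double and -0.13 in WT S776A homozygous mice. Nr1h3, which encodes such a receptor, was at -0.14, -0.16, -0.23 and -0.02, with its lowest unadjusted p, 0.00399, in S776A double mice (adjusted p = 0.488). Cyp46a1, the neuronal enzyme that clears cholesterol from brain, lay at -0.11, -0.10, -0.26 and -0.20. Apoe, the main apolipoprotein of brain, lay at 0.09, -0.02, 0.07 and 0.06. None of these genes passed an adjusted p of 0.05.

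Markers of some cell types, those of Purkinje cells and choroid plexus above all, lay further from WT in SCA1 than the members did, and in bulk tissue fewer cells of a type and less RNA per cell cannot be told apart. All genes of the 8 marker lists passed the expression filter. All 10 Purkinje cell markers had log2 fold changes below 0 in SCA1, 8 of them at an unadjusted p under 0.05. Among them Rgs8 was at -0.53 (edgeR adjusted p = 0.0152), Gng13 was at -0.44 and Car8 at -0.29. The summed level of these markers was 6318 to 7122 CPM in SCA1 and 8424 to 9769 CPM in WT of batch 1. All 10 lay below 0 in SCA1 S776A mice too, with a median log2 fold change of -0.13 and none at an unadjusted p under 0.05. All 12 oligodendrocyte markers lay above 0 in SCA1, with Mobp at 0.29 (unadjusted p = 0.0376) and Mbp at 0.23 (unadjusted p = 0.0036). Their summed level was 7750 to 9538 CPM, against 7208 to 8528 CPM in WT of batch 1. All 10 choroid plexus markers lay above 0 in SCA1 as well, with a median log2 fold change of 1.24 and only Otx2 (0.59) at an unadjusted p under 0.05. Their summed level ran from 1475 to 7524 CPM in SCA1 and from 173 to 2933 CPM in WT of batch 1. In WT S776A homozygous mice, which had the highest mean score of the members, all 10 lay below 0, with a median of -1.19 and none at an unadjusted p under 0.05. The median log2 fold change in SCA1 was 0.06 for 10 microglia markers, -0.00 for 10 astrocyte and Bergmann glia markers, 0.04 for 6 oligodendrocyte precursor markers and -0.05 for 6 endothelial markers, beside 0.11 for the members. Of the 8 immediate early genes, 7 lay above 0 in SCA1, with a median of 0.63, Fos at 1.28 (unadjusted p = 0.0258) and Fosb at 1.23 (unadjusted p = 0.0114). In WT S776A homozygous mice, all 8 lay below 0, with Fos at -1.69, Npas4 at -1.69, Fosb at -1.49 and Nr4a1 at -1.18, each at an unadjusted p under 0.05. In the same mice 3 of 6 oligodendrocyte precursor markers, Cspg4 (-0.38), Gpr17 (-0.33) and Tnr (-0.24), lay below 0 at that p. Of 10 granule cell markers, 8 lay below 0 in SCA1, with a median of -0.12 and Rbfox3 lowest at -0.20, while Calb2 was at 0.42. Zic2 was at -0.21 in S776A double mice. In WT S776A homozygous mice 7 of the 10 lay above 0, with a median of 0.07, from -0.18 for Slc17a7 to 0.20 for Neurod1. The part of cell makeup in the values of the members was not tested.

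Some of the members varied together from mouse to mouse, and others did not. After the mean of its genotype and batch was subtracted from each mouse, Hmgcs1, Idi1 and Cyp51, whose promoters are printed above, moved in step over the 24 mice. Pearson's r was 0.76 for Hmgcs1 with Idi1 and with Cyp51 and 0.74 for Idi1 with Cyp51, with Spearman's rho of 0.72, 0.74 and 0.73. The highest r of the 28 pairs, 0.82 (rho 0.86), joined Fdft1 and Sqle, which make squalene and then oxidize it. Sqle with Cyp51 reached 0.68. Mvd stood apart from the first trio, with r of -0.50 to Idi1 and -0.31 to Hmgcs1, and went with Fdft1 (0.51) and Fdps (0.65). Lss lay at -0.14 to Hmgcs1 and -0.09 to Sqle, and its highest r, 0.55, was to Fdps. The median over 28 pairs was 0.29, and 19 of the 28 lay above 0. S776A double mouse 1, with the lowest score, and WT S776A homozygous mouse 4, with the highest mitochondrial share, were then left out. This choice was made after the values were seen. SCA1 S776A mouse 2 and WT S776A homozygous mouse 2, which deviated most in Fdps (0.674 and 0.572), were kept. Without the 2 mice left out, r was 0.70 to 0.73 among the trio and 0.77 for Fdft1 with Sqle. Values of 1 mouse come from 1 library, so the genes of a pair share its depth, normalization and composition.

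**Figure D4:**
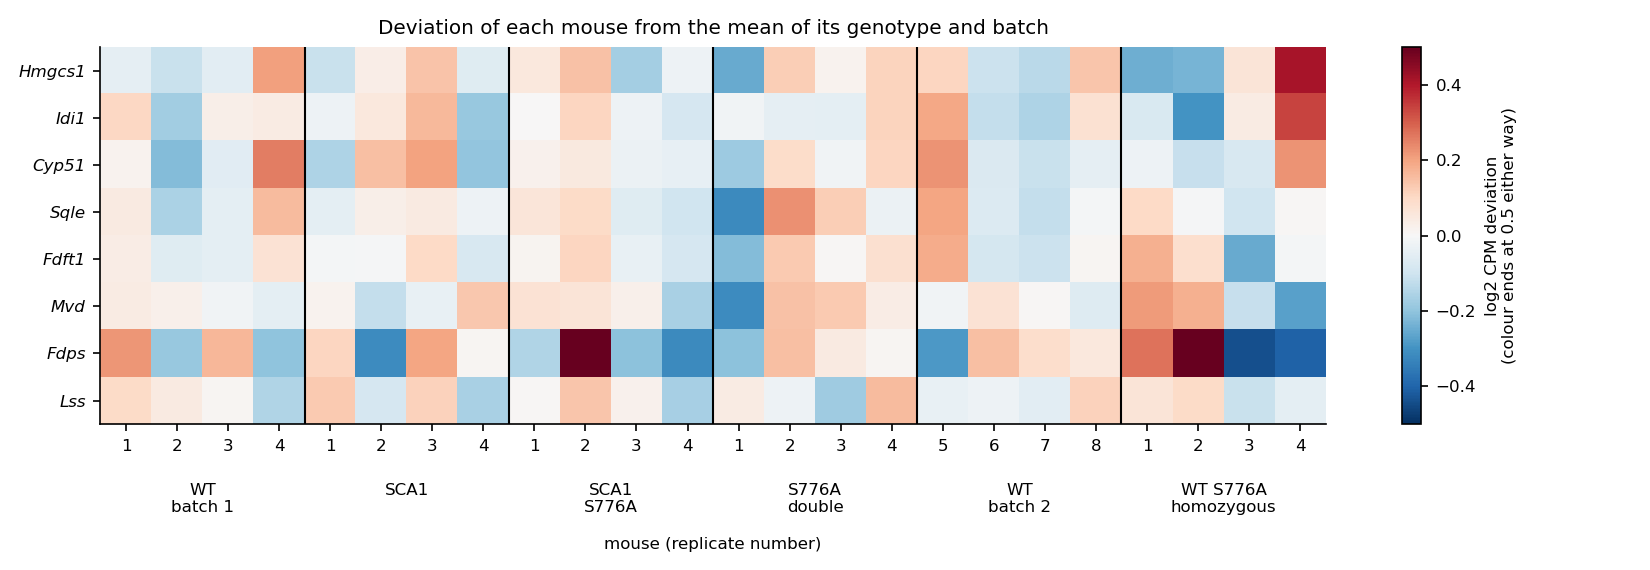
Deviation of each mouse from the mean of its genotype and batch, in log2 CPM, for each gene (rows) and mouse (columns, numbered within genotype). Hmgcs1, Idi1 and Cyp51 take the same colours in most mice, S776A double mouse 1 is low in 6 genes, and WT S776A homozygous mouse 4 is high in Hmgcs1, Idi1 and Cyp51 and low in Mvd and Fdps.

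Genes outside the 8 were then ranked by how closely they followed the mean of the members within genotype and batch, over 24 mice. Of the 8 genes most like that mean, 3 belonged to the sterol pathway, although the ranking ran over all 22494 other genes. These were Nsdhl (r = 0.79), Hsd17b7 (r = 0.76) and Msmo1 (r = 0.75), which act one after another on the sterol methyl groups after Cyp51. The others were Ebpl (r = 0.83), a relative of the sterol isomerase gene Ebp, Gm16015 (r = 0.82), Tgm5 (r = 0.77), Parp11 (r = 0.74) and Stn1 (r = 0.73). Gm16015 is a sparse gene at a mean of 0.15 CPM, where r is little to read. All 13 sterol pathway genes had r above 0, with a median of 0.54, while the median over all other genes was 0.01. Each member against the mean of the other members gave a median r of 0.29. Of the 8 members, 2 stood among the first 225 genes. Of the 13, 8 stood among the first 225 genes of the ranking, among them the 3 named, Mvk at rank 26, Dhcr7 at 59, Acat2 at 83 and Sc5d at 184. Without Fdps in the mean 6 of the 13 did so, with Msmo1 first of all genes at r = 0.87, and without the 2 mice named above 7 did.

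**Figure D5:**
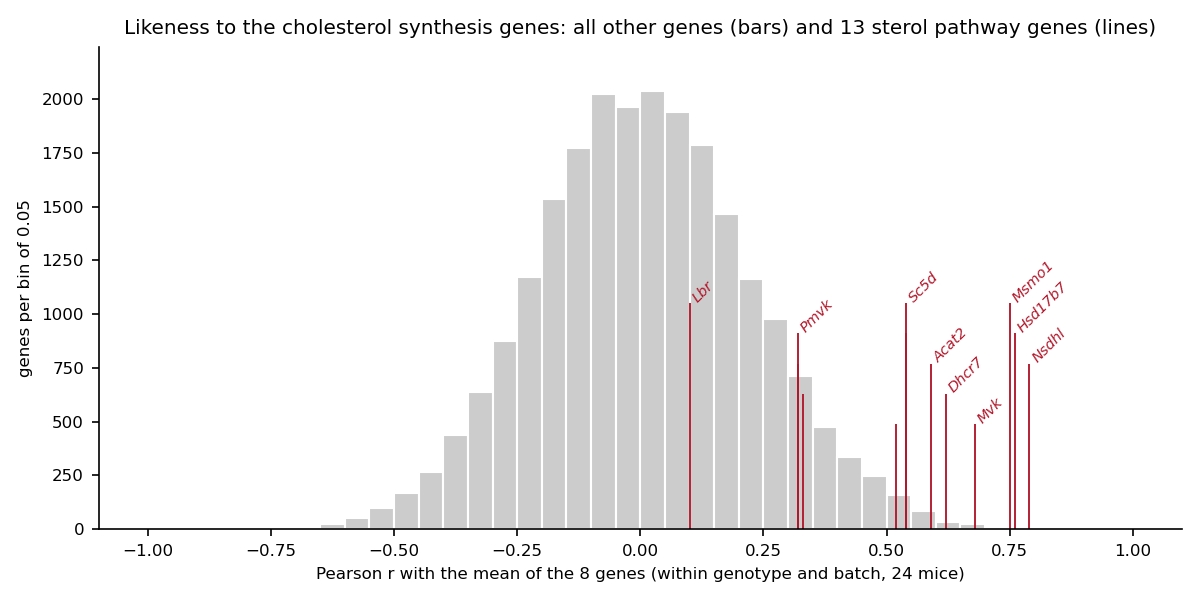
Distribution of Pearson's r between each gene and the mean of the 8 members within genotype and batch over 24 mice (grey bars, genes per bin), with the 13 other sterol pathway genes as lines, 9 of them labelled. The lines lie from 0.10 (Lbr) to 0.79 (Nsdhl), most of them in the right tail of the bars.

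Genes of sterol sensing and transport followed the members less evenly. Insig1 had r = 0.70 (rank 16 of 22502), which fell to 0.49 (rank 446) without Fdps in the mean. Srebf2 itself had r = 0.14, and -0.02 without Fdps. Efflux genes had a median r of -0.08 and fatty acid synthesis genes of -0.02. Oligodendrocyte markers had a median r of 0.28 and granule cell markers of 0.31, with 0 of 12 and 1 of 10 genes among the first 225. Without Fdps in the mean, 4 of 12 oligodendrocyte markers stood there, namely Cnp, Ugt8a, Mog and Opalin, with a median r of 0.46 over the list, beside the 6 of 13 sterol pathway genes. Without the 2 mice, 0 of 12 did. The differences in r between lists were not tested.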

How the data were processed

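Fragments per gene of 24 cerebellum libraries were deposited as whole-number counts without normalization. The authors trimmed reads with Trimmomatic 0.36 and, with STAR 2.7.2d, aligned them to GRCm38.p6 and counted fragments per gene, discarding those that fall on exons of more than 1 gene. The authors' batch correction came after these counts. The unstranded column was used, as the strands were equally covered, and the 2 stranded columns, also deposited counts, served as an alternative. Rows that name no mouse gene were left out of library sizes and tests (their no-feature share was 9.52% to 12.01% in batch 1 and 5.23% to 6.31% in batch 2). Of 54232 gene identifiers, 54165 matched GENCODE M21. The batch was inferred by k-means (k of 2) on 4 technical shares, with a silhouette of 0.634.

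Counts were normalized by TMM and tested with edgeR 4.0.16 (quasi-likelihood test, R 4.3.3), with genotype and batch in 1 fit over all libraries, Benjamini-Hochberg adjustment over 22502 genes and 95% intervals from the moderated t distribution. CPM are TMM-scaled, and log2 CPM used a prior count of 2. The biological coefficient of variation was 12.9%. In a chi-square test over genes, no 2 mice of a group agreed within sampling noise (statistic over its degrees of freedom 8.67 to 219), and none was treated as a duplicate. The intervals of the fit include differences between mice, and the counting error quoted for Fdps covers the sampling of fragments only. Alternatives were DESeq2 1.42.0, ComBat-seq (sva 3.50.0) before DESeq2, RLE scaling, no filter, no batch, only the groups compared, and leaving out each mouse. The scripts were tested on simulated data.

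Named were the 8 members in every comparison, genes of the other lists at an unadjusted p under 0.05 against WT (up to 4 per list, by lowest p), 7 sterol genes whatever their values, and the 8 genes most like the mean of the members. Values of some genes so chosen are not reported here. The members and lists were chosen with earlier results of these data known.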

Additional observations from a re-analysis of the deposited data

Results flagged for a closer look

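In 54 groups of 4 mice (8 genes and the score, in 6 groups of genotype and batch), 3 had a mouse whose gap to its nearest neighbour, divided by the range of the group, exceeded the 95% limit of Dixon's test, where chance alone gives about 2.7. Fdps in SCA1 S776A mouse 2 was 1.59 CPM beside 0.788 to 0.888 CPM in the other mice (gap 0.876 of the range). Lss in WT mouse 8 of batch 2 was 37.8 CPM beside 33.6 to 34.3 CPM (gap 0.835). The score of WT S776A homozygous mouse 3 was 0.00 beside 0.16 to 0.19 (gap 0.838), although Hmgcs1 of that mouse was above all WT mice.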

How the results depend on the processing

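The count of called members stayed at 0 in all 7 comparisons under every alternative run, and the scores moved by less than 1 SD. In the score without the batch, the batch difference of Fdps (-1.32) goes against those of the members higher in batch 2. The score without Fdps was not run without the batch. When 1 mouse at a time was left out, the score ranged from 0.03 to 0.09 in SCA1, from -0.01 to 0.09 in SCA1 S776A, from -0.07 to 0.02 in S776A double and from 0.09 to 0.16 in WT S776A homozygous mice. The count of members at an unadjusted p under 0.05 was less stable. In WT S776A homozygous mice it was 1, but 4 without the batch, 3 after ComBat-seq, 2 without the filter, 0 with only the groups compared, 0 with the sum of stranded counts, and 0 to 2 with 1 mouse left out. In S776A double mice it was 1, but 0 without the batch and 0 to 2 with 1 mouse left out. In SCA1 it was 0, but 3 (Fdft1, Sqle and Mvd, lowest adjusted p = 0.176) with only the groups compared. For SCA1 S776A against SCA1 it was 0, but 2 with only the groups compared. For S776A double against SCA1 S776A it was 0, but 1 with RLE, without the filter and with stranded counts, and 0 to 2 with 1 mouse left out. For S776A double against SCA1 it was 0, with 0 to 1 after leaving out 1 mouse. The share of all genes at that p was computed only for the fit with genotype and batch over all libraries. The counts under the alternatives therefore have no share to be set against. The causes were not tested. Of 28 fold changes against WT of the 7 members other than Fdps, 20 changed sign without the batch, the largest of them 0.15, and 1 with stranded counts, and none with DESeq2, RLE, ComBat-seq, no filter or only the groups compared. No paired analysis was possible because the labels give no replicate numbers shared between genotypes. Depth limits Fdps alone, at 27 to 103 fragments.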

Other observations

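Neighbouring lipid pathways gave few values past an unadjusted p of 0.05. Of 12 fatty acid synthesis genes, 1 reached it in any comparison with WT, the desaturase Scd1 in SCA1 S776A mice, at a log2 fold change of 0.21 (unadjusted p = 0.0302, edgeR adjusted p = 1.0). Fasn, the fatty acid synthase, named here after its values were seen as the lowest of the list, lay at -0.21 in SCA1, -0.14 in SCA1 S776A, -0.26 in S776A double and -0.20 in WT S776A homozygous mice. Of 9 genes on other branches from isoprenoids, Ggps1, which makes geranylgeranyl diphosphate, was at 0.15 in S776A double mice (unadjusted p = 0.042) and Coq2, of ubiquinone synthesis, at 0.14 in WT S776A homozygous mice (unadjusted p = 0.0299). Neither passed the adjusted threshold.

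When Fdps was left out of the mean of the members, 3 of the 8 most similar genes were again of the sterol pathway, Msmo1 (r = 0.87), Hsd17b7 (r = 0.79) and Sc5d (r = 0.76). The others were Gm16015 (r = 0.81), Idh1 (r = 0.81), Sgk2 (r = 0.78), Pcbd1 (r = 0.77) and Hs3st1 (r = 0.76). Idh1 encodes the cytosolic isocitrate dehydrogenase, a source of NADPH, which sterol synthesis uses. The choice to leave out Fdps was made after its counts were seen.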
